A study of Mus musculus with 12 samples.

Results

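The interferon-induced genes described here are 41 genes that respond to type I interferon, to type II interferon or to both. They were measured in mouse liver on Affymetrix expression arrays, 1 array per mouse. The list holds 22 antiviral effectors, sensors and their transcription factors, 6 interferon-inducible GTPases, 9 genes of class I antigen processing, and 4 factors and chemokines of the interferon-gamma response. A member was read on its brightest probeset (a set of short probes for 1 transcript) among those that the platform annotation assigns to that gene alone, and it was tested where the mean log2 intensity over all arrays was at least 4.73, the median of the array. By this rule 38 of the 41 members were named by a probeset and 37 were tested, of 11899 genes tested in all. No single-gene probeset named Isg15, Ifi44 or Psme2 here, so the ubiquitin-like protein ISG15, one of the best known interferon products, has no value. Mx1 had a mean of 3.39 on the log2 scale, under the filter, and was not tested. C57BL/6 mice are known to carry a defective allele of this antiviral GTPase.

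The 12 mice were males of the inbred strain C57BL/6 with free access to food and water. The control group of 6 received no antibiotic, and the other 6 received low-dose penicillin in drinking water, begun after weaning. Livers were taken after 7 weeks of intervention. The labels name neither the dose nor the cages, age and hour at collection, and mice of 1 cage would not be independent. The p-values below measure the spread between these mice.

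Any 2 arrays correlated at 0.980 to 0.997 over genes. All 6 of the hepatocyte markers measured (of 7 listed) passed the filter, and their mean differed between the groups by -0.05 on the log2 scale. In these bulk livers, fewer cells of a type and less RNA per cell cannot be told apart. Immediate early genes, which rise within minutes of a stimulus, stood apart in 3 controls: their mean was 2.21, 2.27 and 1.55 above the average of the 12 arrays in control 1, control 3 and control 5, and between -0.93 and -0.22 in the other arrays.

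Cells respond to interferon through receptors that activate Janus kinases and STAT proteins. Type I interferons, made by almost any infected cell, lead to a complex with STAT2 and IRF9 that binds the interferon-stimulated response element, while interferon-gamma, made mainly by T cells and NK cells, acts through the gamma-activated site. In liver the first pathway is known for antiviral proteins such as the IFIT and OAS families, and the second for GTPases that attack intracellular pathogens, for the chemokine CXCL9 and for a raised capacity to present peptides on class I molecules. Most of these genes respond to both kinds of interferon in some degree.

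Promoter letters known for these 2 pathways are shown for 7 members and 1 shared promoter, chosen from those whose values are described below. The sequences are RefSeq promoter sequences of assembly GRCm38.p6, read 5′ to 3′ on the strand of the gene and ending at the base before the annotated start. A total of 32 of the 41 members were in that table. The capitals mark GAAA, any 2 bases and GAAA again on either strand (read on the other strand as TTTC, any 2 bases and TTTC), the core letters of the interferon-stimulated response element. They also mark TTCNNNGAA, the letters of the gamma-activated site, which read alike on both strands. Ifit1 lies at chr19:34640769-34640888 on the plus strand, Gbp2 at chr3:142620543-142620662 and Gbp3 at chr3:142559924-142560043 on the plus strand. Igtp lies at chr11:58199436-58199555 on the plus strand and Irgm1 at chr11:48871421-48871540 on the minus strand. Psmb8 lies at chr17:34198075-34198194 and Irf1 at chr11:53769894-53770013, both on the plus strand. Each stretch has 120 bases.
Ifit1: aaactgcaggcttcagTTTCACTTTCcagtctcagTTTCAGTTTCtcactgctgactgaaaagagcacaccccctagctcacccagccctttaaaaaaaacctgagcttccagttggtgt
Gbp2: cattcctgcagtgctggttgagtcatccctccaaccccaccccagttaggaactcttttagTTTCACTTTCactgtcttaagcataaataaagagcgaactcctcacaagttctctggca
Gbp3: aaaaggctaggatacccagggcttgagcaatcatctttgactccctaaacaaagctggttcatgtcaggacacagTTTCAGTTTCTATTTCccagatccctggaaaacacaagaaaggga
Igtp: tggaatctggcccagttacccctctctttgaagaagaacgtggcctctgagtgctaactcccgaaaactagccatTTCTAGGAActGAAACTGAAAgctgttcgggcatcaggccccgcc
Irgm1: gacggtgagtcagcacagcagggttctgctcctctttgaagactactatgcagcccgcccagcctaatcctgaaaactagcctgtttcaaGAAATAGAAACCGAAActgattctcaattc
Psmb8: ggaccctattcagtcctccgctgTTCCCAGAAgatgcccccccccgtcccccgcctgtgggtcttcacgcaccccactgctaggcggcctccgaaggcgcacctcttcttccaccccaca
Irf1: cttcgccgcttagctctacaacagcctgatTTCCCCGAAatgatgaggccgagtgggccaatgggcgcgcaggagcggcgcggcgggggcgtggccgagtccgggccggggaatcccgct
The antiviral gene Ifit1 holds 2 response element cores in a row, 104 and 85 bases before the start. Gbp3 and Irgm1 each hold 2 overlapping cores. Igtp holds a gamma-activated site 45 bases before its start and a response element core at 34, close together. Psmb8 and Irf1 hold only the gamma-activated letters in these windows, at 97 and 90 bases. Psmb9 and Tap1 are divergent neighbours on chromosome 17, and the 225 bases between their starts, chr17:34187331-34187555 on the plus strand, hold neither set of letters.
Psmb9 to Tap1: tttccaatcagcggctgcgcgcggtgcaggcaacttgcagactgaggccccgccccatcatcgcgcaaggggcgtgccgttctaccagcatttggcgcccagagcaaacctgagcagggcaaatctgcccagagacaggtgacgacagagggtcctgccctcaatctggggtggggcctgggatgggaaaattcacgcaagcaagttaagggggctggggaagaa
Over the 250 bases before the start, 13 of the 32 members (40.6%) held the response element core, against 3.46% of the 27025 genes in the table. The gamma-activated letters were in 7 members (21.9%) against 8.13% of genes, and 3 members held both. Every GTPase in the table (Gbp2, Gbp3, Igtp and Irgm1) held the response element core, as did some antiviral genes. Among antigen processing genes only B2m held it, and among factors and chemokines only Cxcl10. Gbp2, Gbp3 and Irgm1 held the core without the gamma-activated letters. The antiviral gene Ifit2 held only the gamma-activated letters, and Cxcl9, Tap1 and Psmb9 neither. Whether the letters differ between role groups was not tested. A match is a description of letters and not a site. The 12 tested members with the response element core had a median penicillin minus control difference of 0.14 on the log2 scale, and the other 17 tested members in the table one of 0.15.

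No interferon-induced gene passed the test between penicillin and control livers. With limma and Benjamini-Hochberg adjustment over all genes, 0 of the 37 tested members were called at an adjusted p under 0.05, beside 0% of all genes, and the smallest adjusted p of a member was 0.523. Before adjustment, 6 members had a p under 0.05 on the higher side, namely Gbp6, Igtp, Cxcl9, Tap1, Psmb9 and Tap2, where 4.33% of all genes did. No member did on the lower side, where 3.66% of all genes did. A total of 31 of the 37 were higher with penicillin and 6 lower, with a median difference of 0.16 on the log2 scale. Over all genes 52.8% were higher, with a median of 0.01. The values of the 6 livers of each group overlapped for every member. Among all genes, 0.261% had every penicillin value above every control value.

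This lean was smaller without a pair of control livers. The lowest of the 12 arrays was control 1 or control 3 for 26 of the 37 members, against 20.5% of all genes. Leaving out 2 controls that are low for most members raises the control mean of those members by construction, so a smaller lean follows from the choice. Without these 2 arrays 21 members were higher and 16 lower with a median of 0.02, where 49.9% of all genes were higher. The antiviral genes then turned from 15 higher and 4 lower to 7 higher and 12 lower, while all 6 GTPases and 7 of 8 antigen processing genes stayed higher. Gbp6 was then the 1 member with an unadjusted p under 0.05, where 2.64% of all genes were on the higher side, and its limma adjusted p was 0.894. The role groups differed in these counts, but the difference between the groups was not tested.

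**Figure D1:**
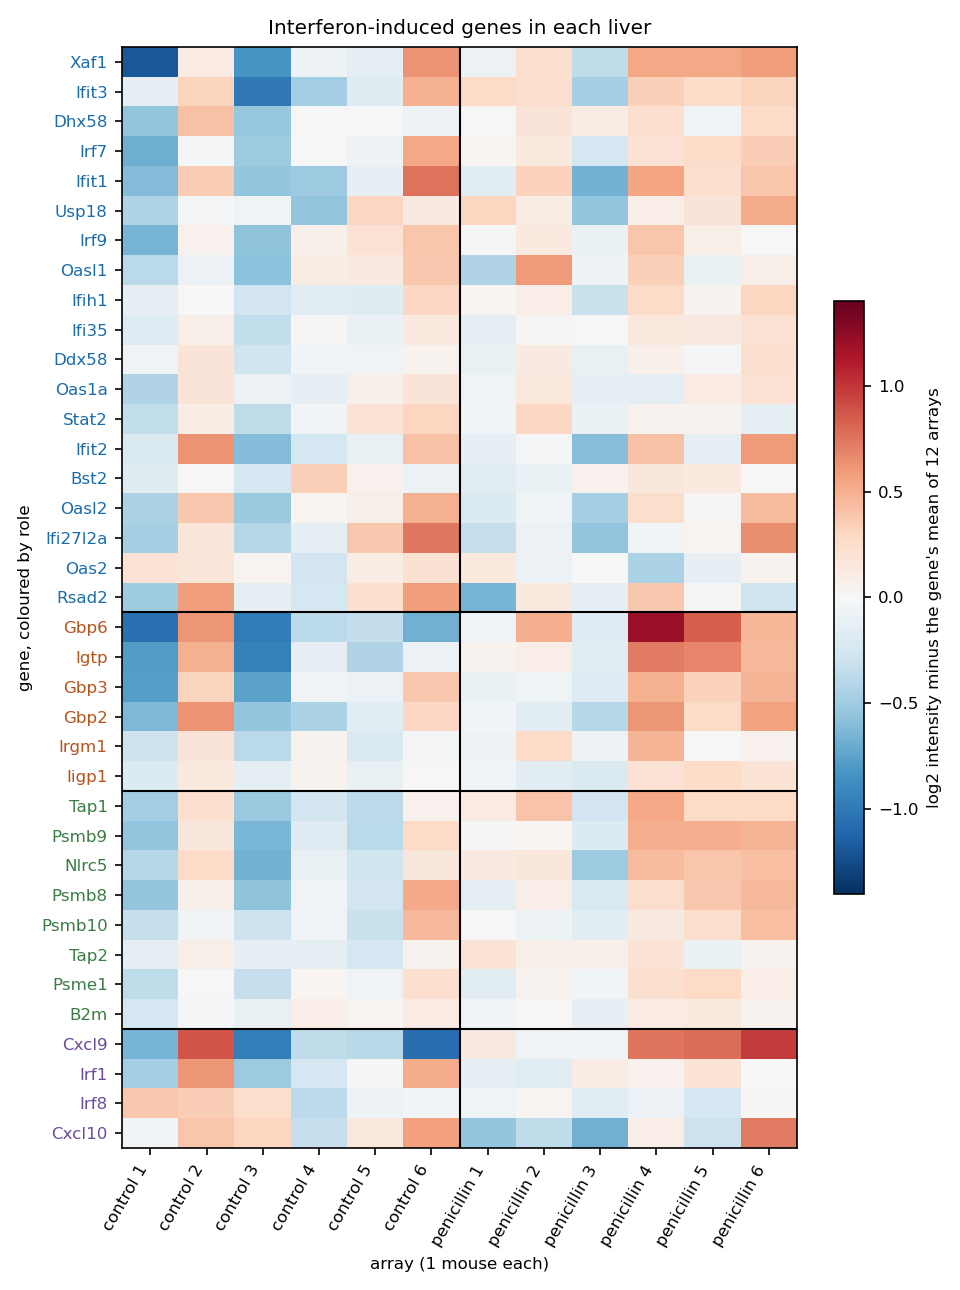
Each row is 1 of the 37 tested genes and each column 1 liver. Colour gives the log2 intensity minus the gene's mean of the 12 arrays, with role groups separated by lines in the order antiviral, GTPases, antigen processing, and factors and chemokines. Control 1 and control 3 are blue in most rows, control 6 is red in most antiviral rows and blue for Gbp6 and Cxcl9, and penicillin 3 is the palest or bluest of the penicillin livers in many rows.

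**Figure D2:**
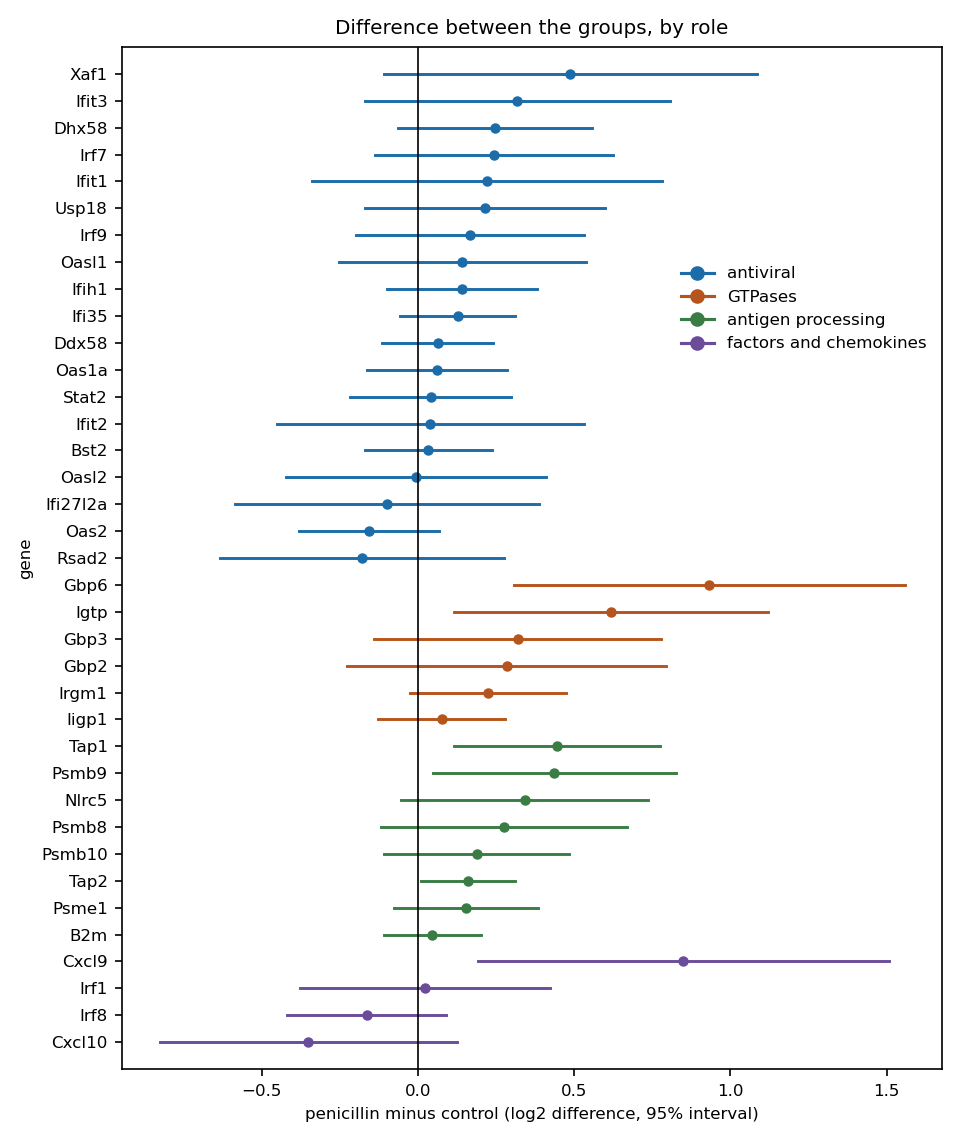
Points give the penicillin minus control difference on the log2 scale for each tested gene and lines its 95% interval from limma, before any adjustment, coloured by role. The intervals of Gbp6, Igtp, Tap1, Psmb9, Tap2 and Cxcl9 lie above 0 and those of the other genes include it.

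The interferon-inducible GTPases had the largest median difference of the 4 role groups with all arrays, though not without controls 1 and 3, where their median was 0.09 and that of the antigen processing genes 0.11. This family, which assembles on the membranes of vacuoles that hold bacteria or parasites, was higher with penicillin for 6 of 6 members, with a median difference of 0.30 on the log2 scale. Gbp6, a guanylate-binding protein, had a lowest, median and highest log2 intensity of 6.57, 7.09 and 8.23 in controls, and of 7.43, 8.10 and 8.82 with penicillin. The groups overlapped through control 2, which was above 4 of the 6 penicillin livers. The other 5 controls were all below the lowest penicillin value. The means were 7.15 ± 0.61 and 8.08 ± 0.52 (SD, n = 6), a difference of 0.93 (SE 0.29, limma adjusted p = 0.523) or 1.91-fold. Leaving out control 2, the highest control, raises the difference by construction, and it was then 1.15 (limma adjusted p = 0.163). A second Gbp6 probeset gave 0.78 with all arrays.

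Igtp, an immunity-related GTPase also called Irgm3, had values of 8.77, 9.45 and 10.21 in controls (lowest, median and highest) and of 9.56, 9.99 and 10.45 with penicillin. Control 1 and control 3 were its 2 lowest livers, and control 2 was above 4 of the penicillin livers. The means were 9.41 ± 0.53 and 10.03 ± 0.36 (SD, n = 6), and the difference was 0.62 (SE 0.23, limma adjusted p = 0.571). Irgm1, a regulator that keeps other GTPases of the family inactive on host membranes, ranged from 8.71 to 9.26 in controls (median 8.97) and from 9.02 to 9.56 with penicillin (median 9.12). Its difference was 0.22 (SE 0.12, limma adjusted p = 0.671), and all 6 penicillin livers were above the control median, as they were for Gbp6 and Igtp.

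The other GTPases were Gbp3 with a difference of 0.32, Gbp2 with 0.28 and Iigp1 with 0.08. Gbp2 was read on a probeset whose probes can also match related sequences, and a dimmer probeset without that limit gave 0.29. The mean of the 6 GTPases per array was -0.62 in control 1 and -0.62 in control 3, on the log2 scale relative to the 12 arrays. It was 0.39 in control 2 and 0.62, 0.40 and 0.37 in penicillin 4, penicillin 5 and penicillin 6. Thus 4 of the 6 penicillin livers lay within the range of controls 2, 4, 5 and 6. Without controls 1 and 3 the median difference of the family was 0.09, that of Gbp6 was 0.66 and that of Igtp 0.34. Without control 5 as well, Gbp6 stood at 0.61 and the family at 3 higher and 3 lower.

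**Figure D3:**
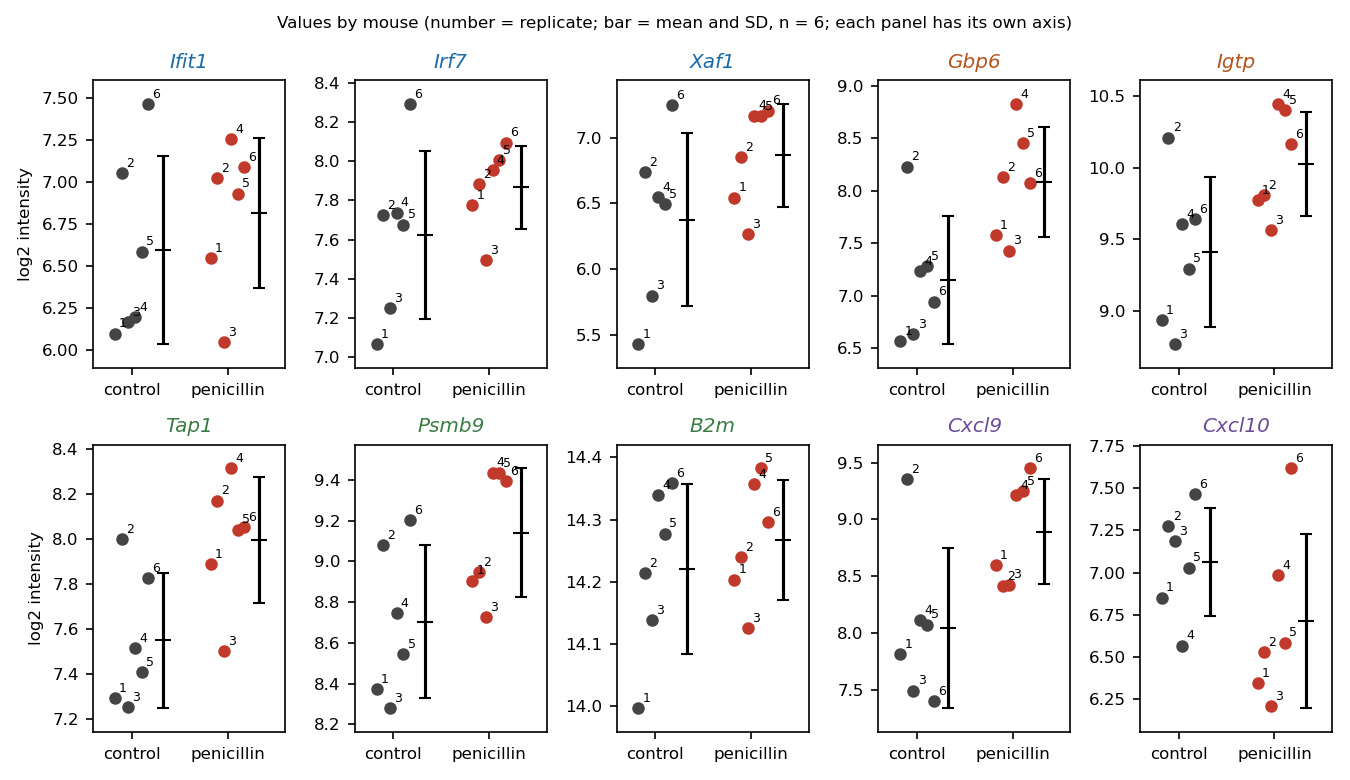
Each point is the log2 intensity of 1 liver, numbered by replicate, for 10 genes coloured by role in their titles, with the mean and SD of 6 livers beside each group and an axis of its own in each panel. Control 2 is the control nearest the penicillin values for Gbp6 and Cxcl9, control 6 is the highest liver for Ifit1, Irf7 and Xaf1, and 5 of 6 penicillin livers lie below the control median for Cxcl10.

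Genes that cut and carry peptides for class I molecules were all higher with penicillin, by small amounts. Of 9 listed, 8 were tested, with differences from 0.05 to 0.45 and a median of 0.23 on the log2 scale. Tap1 encodes 1 of the 2 subunits of the transporter that moves peptides into the endoplasmic reticulum. Its lowest, median and highest log2 intensities were 7.25, 7.46 and 8.0 in controls and 7.50, 8.04 and 8.31 with penicillin. The means were 7.55 ± 0.30 and 7.99 ± 0.28 (SD, n = 6), a difference of 0.45 (SE 0.15, limma adjusted p = 0.567) or 1.36-fold. Penicillin 3 was the low liver of its group, below control 4, and control 2 and control 6 were the high livers of theirs. Tap2, the partner subunit, had a difference of 0.16 (SE 0.07, limma adjusted p = 0.602), with controls from 6.95 to 7.26 (median 7.06) and penicillin livers from 7.07 to 7.37 (median 7.26).

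Psmb9, an inducible catalytic subunit that turns the proteasome into the immunoproteasome, ranged from 8.28 to 9.20 in controls (median 8.65) and from 8.73 to 9.43 with penicillin (median 9.17). Its difference was 0.44 (SE 0.18, limma adjusted p = 0.592), and the penicillin livers fell into 3 from 9.39 to 9.43 and 3 from 8.73 to 8.95, and 3 of the controls overlapped with the latter or lay above them. Psmb8, a second inducible subunit, ranged from 8.82 to 9.92 in controls (median 9.23) and from 9.18 to 9.84 with penicillin (median 9.56). The highest liver of the 12 was control 6, and the difference was 0.27 (SE 0.18, limma adjusted p = 0.754). Psmb10, the third such subunit, had a difference of 0.19. Psme1, a subunit of the proteasome activator PA28, had 0.15, and Nlrc5, the transactivator of class I genes, had 0.34.

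B2m, the light chain of class I molecules, varied little. It ranged from 14.00 to 14.36 in controls (median 14.25) and from 14.13 to 14.38 with penicillin (median 14.27), with a difference of 0.05 (SE 0.07, limma adjusted p = 0.919). The class I heavy chains and loading factors measured beside it, 7 of 10 listed, were higher for 5 and lower for 2 with a median of 0.05. H2-K1 differed by 0.06 and H2-D1 by 0.01, and none of the 7 had an unadjusted p under 0.05.

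Each inducible subunit takes the place of a constitutive one, so each pair was compared within the same liver. The constitutive subunits Psmb5, Psmb6 and Psmb7 differed between the groups by 0.01, 0.04 and 0.05 on the log2 scale. The difference of Psmb9 minus that of Psmb6 was 0.39 (SE 0.21), with an exact permutation p of 0.0974, two-sided, and 0.292 after adjustment over the 3 pairs. All 6 penicillin livers were above the control median of this ratio. Psmb8 minus Psmb5 was 0.26 (SE 0.21, exact permutation p = 0.238, adjusted 0.357), and Psmb10 minus Psmb7 was 0.14 (SE 0.24, exact permutation p = 0.556). The smallest p this test can give with 6 and 6 livers is 0.00216, and no pair passed. The 5 constitutive partners together had a median difference of 0.01.

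Per array, the mean of the 8 antigen processing genes was -0.38 in control 1 and -0.40 in control 3. It was 0.24 in control 6 and between 0.26 and 0.30 in penicillin 4, 5 and 6. Penicillin 1, 2 and 3 stood at 0.01, 0.09 and -0.18, inside the range of controls 2, 4, 5 and 6. Without controls 1 and 3 the median difference was 0.11, with Tap1 at 0.31 and Psmb9 at 0.25. Without control 5 as well, 4 of the 8 genes were higher and 4 lower, with a median of 0.03. With control 6 left out in place of those controls, the median difference was 0.35. Then 11 of the 37 members, 6 of them antigen processing genes, had an unadjusted p under 0.05 on the higher side, beside 6.1% of all genes. In that fit 33 members were higher, where 53.7% of all genes were, and 0 genes were called with a smallest adjusted p of a member of 0.336. Leaving out control 6, the highest control by the mean of these genes, raises their mean difference by construction.

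The antiviral genes were the largest group, and their median difference was below that of the GTPases and of the antigen processing genes. Of 22 listed, 19 were tested, 15 were higher and 4 lower with penicillin, the median was 0.13 on the log2 scale, and 0 had an unadjusted p under 0.05. Ifit1, which binds viral RNA that lacks the host's cap methylation, ranged from 6.09 to 7.46 in controls (median 6.39) and from 6.04 to 7.26 with penicillin (median 6.98). Both the highest liver, control 6, and the lowest, penicillin 3, went against the mean difference of 0.22 (SE 0.26, limma adjusted p = 0.884). Ifit3 differed by 0.32 and Ifit2 by 0.04.

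Irf7, the master factor of the type I response, ranged from 7.07 to 8.29 in controls (median 7.70) and from 7.49 to 8.10 with penicillin (median 7.92). The penicillin livers lay inside the control range, and the difference was 0.24 (SE 0.18, limma adjusted p = 0.774). Stat2, the type I specific STAT, ranged from 5.99 to 6.65 in controls (median 6.38) and from 6.21 to 6.63 with penicillin (median 6.35), with a difference of 0.04 (SE 0.12, limma adjusted p = 0.961). A second Stat2 probeset gave -0.08, the only case of opposite signs among the 10 members with more than 1 probeset above the filter. Irf9, which completes the same complex, differed by 0.17.

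The antiviral members with the smallest p were Xaf1, Dhx58 and Oas2. Xaf1, an interferon-induced promoter of cell death, had a lowest, median and highest log2 intensity of 5.43, 6.52 and 7.25 in controls and of 6.26, 7.01 and 7.21 with penicillin. Control 1 and control 3 were its lowest livers and control 6 its highest. The difference was 0.49 (SE 0.28, limma adjusted p = 0.704), and 0.11 without controls 1 and 3. Dhx58, the RNA helicase LGP2, ranged from 5.55 to 6.52 in controls (median 6.07) and from 6.05 to 6.37 with penicillin (median 6.25), so that all penicillin values lay inside the control range. Its difference was 0.25 (SE 0.14, limma adjusted p = 0.716) with all arrays. Oas2, a synthetase of the 2-5A signal that switches on RNase L, was lower with penicillin. No penicillin liver was above the control median, though the highest was close to it. It ranged from 6.63 to 7.11 in controls (median 7.03) and from 6.45 to 7.03 with penicillin (median 6.85), with a difference of -0.16 (SE 0.10, limma adjusted p = 0.755).

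The remaining antiviral genes lay between -0.18 and 0.21. Rsad2, the antiviral enzyme viperin, differed by -0.18, and its 3 probesets gave -0.18, -0.12 and -0.25. Ifi27l2a, an interferon-induced protein of mitochondria, differed by -0.10 and Oasl2, a relative of the OAS enzymes, by -0.01. On the higher side were Usp18, which removes ISG15 from proteins and restrains the receptor, with 0.21, Oasl1 with 0.14, the RNA sensors Ifih1 with 0.14 and Ddx58 with 0.06, Ifi35 with 0.13, Oas1a with 0.06 and the virus-tethering membrane protein Bst2 with 0.03. Ifi35 was read on a probeset that can also match other sequences, and its dimmer probesets gave 0.07 and 0.05.

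Control 6 was the highest liver for 10 of the 19 antiviral genes and for 12 of all 37 members, against 12.4% of all genes. The mean of the antiviral genes was 0.35 there, -0.38 in control 1 and -0.41 in control 3. All 6 penicillin livers lay between these controls, from -0.25 in penicillin 3 to 0.25 in penicillin 6. The spread was wider in controls: 29 of the 37 members had a larger SD in controls than with penicillin, against 55.3% of all genes. The median SD of a member was 0.35 in controls and 0.27 with penicillin, and over all genes it was 0.15 and 0.14.

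**Figure D4:**
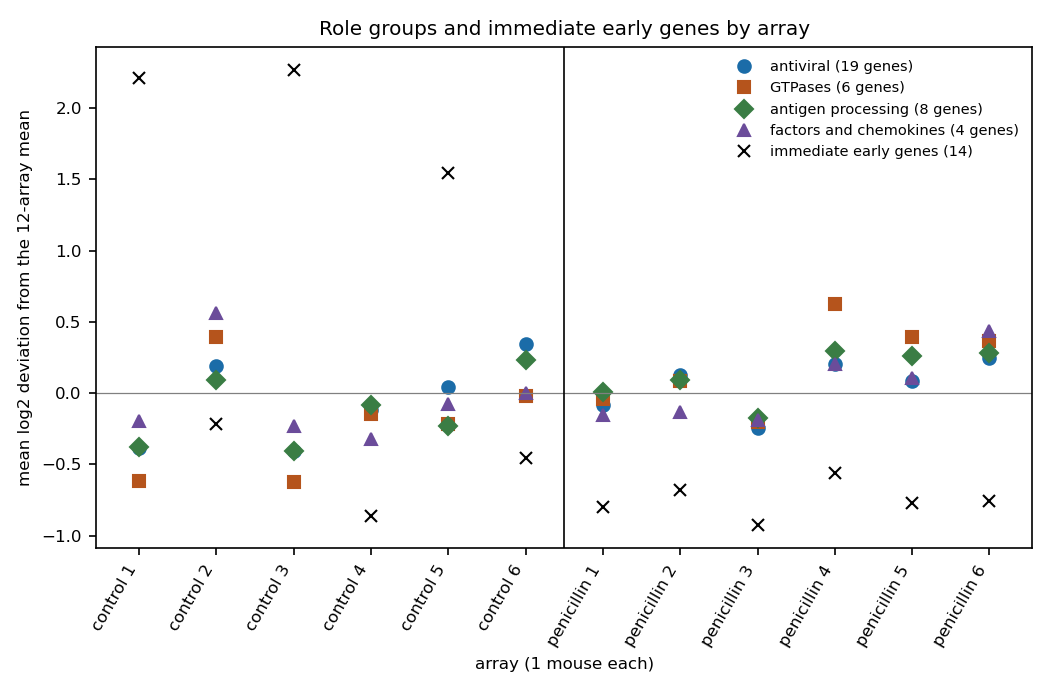
Symbols give, for each liver, the mean log2 deviation from the average of the 12 arrays for the 4 role groups and for 14 immediate early genes. Control 1 and control 3 combine the lowest means of GTPases (-0.62 in each) with the highest means of immediate early genes (2.21 and 2.27). Control 5, at 1.55 for immediate early genes, has 0.04 for antiviral genes and -0.22 for GTPases. It has -0.23 for antigen processing and -0.08 for factors and chemokines. The penicillin livers lie between -0.25 and 0.62 for the role groups and below 0 for immediate early genes.

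The factors and chemokines of the interferon-gamma response did not share a direction. Cxcl9, a chemokine that draws T cells through CXCR3, had a lowest, median and highest log2 intensity of 7.40, 7.94 and 9.35 in controls and of 8.41, 8.90 and 9.45 with penicillin. Control 2, at 9.35, stood among the highest penicillin livers, and the other 5 controls, at 8.11 or less, were below all penicillin livers. The means were 8.04 ± 0.70 and 8.89 ± 0.46 (SD, n = 6), a difference of 0.85 (SE 0.30, limma adjusted p = 0.570) or 1.80-fold. A dimmer Cxcl9 probeset gave 0.42. The difference was 1.11 without control 2 (limma adjusted p = 0.162) and 0.66 without controls 1 and 3. As control 2 was the highest control, leaving it out raises the difference by construction.

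Cxcl10, which binds the same receptor, pointed the other way. It ranged from 6.57 to 7.47 in controls (median 7.11) and from 6.21 to 7.61 with penicillin (median 6.56). The highest liver of all was penicillin 6 and the other 5 penicillin livers were below the control median, and the difference was -0.35 (SE 0.22, limma adjusted p = 0.735). The third chemokine of this receptor, Cxcl11, which is not on the list, differed by 0.24 (limma adjusted p = 0.766). Irf8, a factor of myeloid cells, ranged from 5.90 to 6.65 in controls (median 6.38) and from 6.03 to 6.30 with penicillin (median 6.20), with all penicillin livers below the control median and a difference of -0.16 (SE 0.12, limma adjusted p = 0.772). Irf1, the first factor made in response to interferon-gamma, differed by 0.02. It was highest in control 2 (9.45) and control 6 (9.34), above every penicillin liver (8.67 to 9.02).

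Control 2 and control 6 thus differed in which members were high. Control 6 had the lowest Cxcl9 of the 12 livers (7.40) and a low Gbp6 (6.95), with the highest Ifit1 (7.46) and Irf7 (8.29). Control 2 had the highest Gbp6 (8.23) and Cxcl9 (9.35) of the controls. These 2 livers differed by 1.28 for Gbp6 and by 1.95 for Cxcl9. They were picked for their values, and for Cxcl9 they are the highest and lowest controls. Their gap can therefore not be weighed against the difference between the group means.

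No upstream gene of the pathway passed the test. Of 19 ligands, receptors, kinases, adaptors and brakes listed, 14 were tested, 4 higher and 10 lower with a median of -0.05 on the log2 scale. The receptor chains Ifnar1, Ifnar2, Ifngr1 and Ifngr2 differed by -0.07, 0.01, -0.14 and 0.03, and the kinases Jak1, Jak2 and Tyk2 by -0.05, 0.02 and -0.05. The interferon genes Ifnb1 and Ifng and the brake Socs1 were below the filter, as was the receptor chain Ifnlr1. The one with an unadjusted p under 0.05 was Socs3, a brake on cytokine receptors, beside 3.66% of all genes on the lower side. It stood at 7.73 ± 1.13 in controls and 6.77 ± 0.25 with penicillin (SD, n = 6). The difference was -0.96 (SE 0.42, limma adjusted p = 0.602). Without controls 1 and 3, 0 of the 14 had an unadjusted p under 0.05, and without controls 1, 3 and 5, 1 did.

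A list of 30 further interferon-induced genes leaned the same way as the members. Of 22 tested, 18 were higher and 4 lower with a median of 0.13, and 2 had an unadjusted p under 0.05, both higher. Over all genes, 52.8% were higher and 4.33% had such a p on the higher side. Trim21, an antibody receptor of the cytosol, differed by 0.29 (SE 0.09, limma adjusted p = 0.525) and Parp9 by 0.14 (SE 0.06, limma adjusted p = 0.615). Irgm2, the third regulator of the immunity-related GTPases, differed by 0.64 (SE 0.30, limma adjusted p = 0.641) and Gbp7 by 0.30. Without controls 1 and 3 the list had 14 higher and 8 lower with a median of 0.03, where 49.9% of all genes were higher. These genes were measured in the same livers as the members, so their lean is not a separate observation.

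Markers of other liver and immune cells were compared in the same fit. T cell markers were tested for 4 of 8 genes, of which Cd3d differed by 0.23 (limma adjusted p = 0.567) and Cd3e, Cd4 and Cd8a by 0.04, 0.07 and -0.02. Their mean per array was -0.15 to 0.03 in controls, with 0.03 in control 1 and -0.01 in control 3, and -0.07 to 0.16 with penicillin. Cd3g and Cd8b1 were below the filter and Lck and Trac not named. NK cell markers were tested for 3 of 6 genes, 2 higher and 1 lower, with Ncr1 and Klrk1 below the filter. Their mean was -0.12 to 0.11 in controls, with -0.05 in control 1 and -0.07 in control 3, and -0.16 to 0.50 with penicillin. The 0.50 was penicillin 6 alone, and the next highest penicillin liver was penicillin 3 at 0.05. B and plasma cell markers were tested for 3 of 6 genes, all 3 higher, with a mean of -0.51 to 0.63 in controls, lowest in control 1 and control 3 (-0.51 and -0.46), and of -0.30 to 0.52 with penicillin. Kupffer cell and macrophage markers were tested for 8 of 8 genes, 2 higher and 6 lower with a median of -0.07. Their mean was -0.21 to 0.39 in controls, highest in control 6 (0.39) and control 2 (0.21) and lowest in control 4. It was -0.28 to 0.17 with penicillin, lowest in penicillin 3. Control 2, control 6 and penicillin 3 were also high or low for many members. Control 1 and control 3, the lowest livers for most members, stood at -0.09 and -0.06. Neutrophil markers were tested for 2 of 7 genes: S100a8 differed by -1.94 (limma adjusted p = 0.304) and S100a9 by -1.63 (limma adjusted p = 0.299), and their mean was -0.32 to 2.28 in controls, highest in control 6, and -1.69 to -0.51 with penicillin, with Mpo, Elane and Camp below the filter.

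Plasmacytoid dendritic cells, known as strong producers of type I interferon, were followed by 3 of 5 markers, 2 higher and 1 lower, with a mean of -0.18 to 0.09 in controls (lowest in control 1) and -0.13 to 0.14 with penicillin. These markers include Bst2, itself a member, and Ccr9 was below the filter. Other dendritic cell markers were tested for 2 of 5 genes, both higher, with a mean of -0.22 to 0.16 in controls and -0.20 to 0.19 with penicillin. Endothelial markers were tested for 6 of 6 genes, 2 higher and 4 lower. Their mean was below 0 in control 1 and control 3 (-0.17 and -0.14), up to 0.40 in the other controls, and -0.31 to 0.07 with penicillin. Stellate cell and fibroblast markers, 5 of 6 tested, had 1 higher and 4 lower genes. Their mean was -0.22 in control 1, -0.20 in control 3 and 0.37 in control 2, and -0.52 to 0.28 with penicillin. Cholangiocyte markers, 4 of 5 tested, were lower for 4 with a median of -0.31, and 2 had an unadjusted p under 0.05, beside 3.66% of all genes on the lower side. Their mean was 0.07 to 0.27 in controls and -0.53 to 0.08 with penicillin. The part of any of these cells in the interferon-induced values was not tested.

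**Figure D5:**
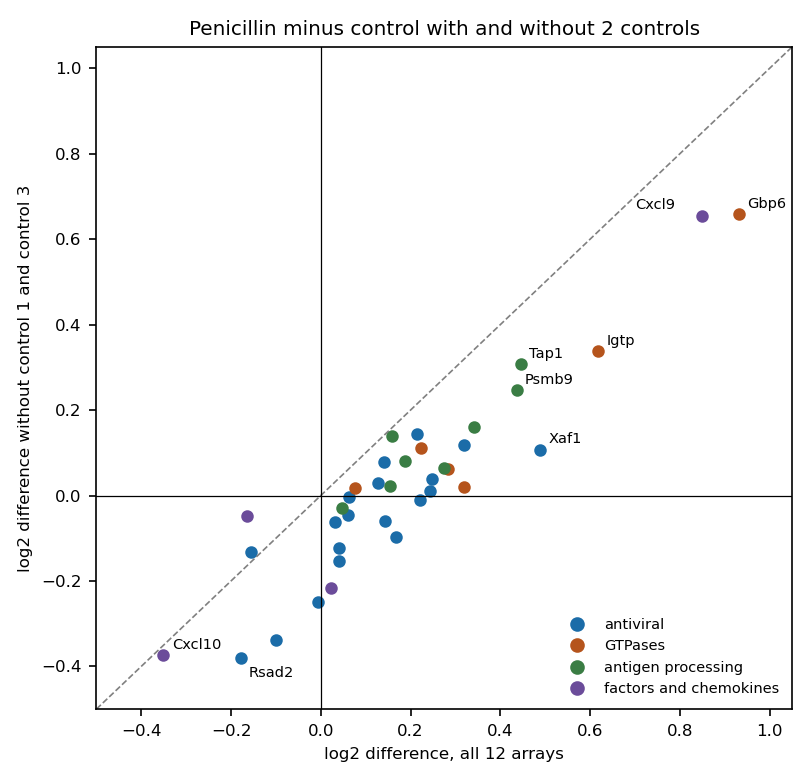
Each point is 1 tested gene, with the penicillin minus control difference (log2) of all 12 arrays on the horizontal axis and that without control 1 and control 3 on the vertical axis, coloured by role, and the dashed line marks equal values. Gbp6 (0.93 to 0.66), Cxcl9 (0.85 to 0.66), Igtp (0.62 to 0.34), Tap1 (0.45 to 0.31) and Psmb9 (0.44 to 0.25) lie below the line of equal values, and 12 of the 19 antiviral genes lie below 0 on the vertical axis.

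Control 1, control 3 and control 5 carried the high immediate early genes, of which 14 of 15 were tested and 14 were lower with penicillin. Control 5 had a mean of -0.22 for the GTPases and of -0.23 for the antigen processing genes. In both of these role groups only control 1 and control 3 were lower. It was not low for the antiviral genes, with a mean of 0.04, and had -0.08 for the factors and chemokines. Without controls 1, 3 and 5 the members were 13 higher and 24 lower with a median of -0.03, where 46.9% of all genes were higher. With the mean of immediate early genes per array as a covariate they were 12 higher and 25 lower with a median of -0.04, where 47.3% of all genes were higher. In that fit 3 of the 19 antiviral genes, 3 of 6 GTPases and 4 of 8 antigen processing genes were higher. The score and the treatment overlap in these 12 livers, since all 6 penicillin livers had a low score, so that the slope of the score rests mainly on the controls. The difference of Gbp6 was 0.61 in it, against 0.93 without the score, and that of Cxcl9 0.61 against 0.85. Neither had an unadjusted p under 0.05 there, and the limma adjusted p of each was 0.980.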

How the data were processed

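Liver RNA of 6 control and 6 penicillin-treated mice was hybridised to 1 array per mouse. Per the submitters' processing notes, the authors used RMA to make the deposited probeset intensity values. RMA makes the arrays' distributions alike and usually returns log2, but the deposited intensities were linear, so log2 was taken first. Of 45101 probesets, 64 were controls, 34945 had 1 gene in the platform annotation, 932 several and 9160 none. Symbols were updated with RefSeq genes of GRCm38.p6 (18032 identifiers matched, 162 did not). Each gene was read on its brightest probeset with a mean log2 of at least 4.73, which gave 11899 genes. No detection calls were used, and the number of arrays limits the precision.

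Penicillin minus control was fitted with limma 3.58.1 in R 4.3.3 (empirical Bayes, two-sided) on all 12 arrays, with Benjamini-Hochberg adjustment over all genes at 0.05. The fit was tested on simulated data with independent normal values for each gene. It recovered 72% of 50 changes of 1.5-fold and 96% of 50 changes of 2-fold, with 13 false calls. That simulation held no shift shared by many genes of 1 array, so it cannot tell how the fit performs on livers with such shifts. The rule for values by array took the 3 members with the smallest p in each role group, plus Isg15, Ifit1, Irf7, Stat2, Psmb8, Tap1, B2m and Cxcl10. Other members and genes beyond these were named for their role or after their values were seen. The alternatives were other filters, normalizations, variance priors and probeset summaries, array weights, a replicate block, an immediate early gene covariate and the omission of arrays. The members and lists were chosen with earlier results of these data known.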

Additional observations from a re-analysis of the deposited data

Results flagged for a closer look

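Of 84 groups of 6 livers examined for a single liver far from the rest of its group, 6 held one, where chance gives about 1 in 20. These groups are not independent, since they share livers and a list mean contains its members, so the 6 cannot be weighed against that rate. Penicillin 3 was the low liver for Ifit3 (6.71, with the next at 7.42) and for Nlrc5 (7.29, with the next at 7.91). Control 4 was low for Oas2 (6.63, with the next at 6.94). Control 6 was high for Psmb10 (10.16, with the next at 9.66). Control 2 was high for Cxcl9 (9.35, with the next at 8.11) and for the mean of the 4 factors and chemokines (0.56 on the log2 scale relative to the 12 arrays, with the next at -0.0019).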

How the results depend on the processing

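Under all 25 alternatives limma called 0 genes, and the smallest adjusted p of a member was between 0.162 (without control 2, Cxcl9) and 0.996 (without controls 1, 3 and 5). Of the 37 members, 13 kept the sign of their difference throughout, and 24 changed sign under at least 1. Among the 13 on the higher side were Gbp6 (0.61 to 1.15 on the log2 scale), Cxcl9 (0.51 to 1.11), Igtp (0.18 to 0.78), Tap1 (0.21 to 0.54) and Psmb9 (0.12 to 0.56). Cxcl10 (-0.53 to -0.23) and Oas2 (-0.23 to -0.08) stayed on the lower side. The median of all members ranged from -0.04 to 0.23, that of the antiviral genes from -0.10 to 0.18 and that of the GTPases from 0.01 to 0.43. The replicate block changed no sign and no call (1214 genes at an unadjusted p under 0.05 against 950, smallest adjusted p 0.0732). Same-numbered livers deviated together with correlations from -0.26 to 0.39 and 3 of 6 matched their own number best, so the numbers were not taken to pair the mice.

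Adding the mean of immediate early genes to the fit left 524 genes at an unadjusted p under 0.05. Differences were then -0.073 for Ifit1, -0.23 for Ifit2, -0.10 for Irf7, -0.16 for Irf9, -0.14 for Stat2, -0.067 for Oas1a, -0.11 for Oasl1, -0.11 for Bst2, -0.035 for Ddx58, -0.033 for Dhx58, -0.034 for Ifi35, -0.053 for Xaf1, -0.0059 for Gbp2, -0.11 for Gbp3, -0.028 for Iigp1, -0.081 for Psmb8, -0.042 for Psmb10, -0.044 for Psme1, -0.060 for B2m, -0.32 for Irf1 and 0.014 for Irf8. Without controls 1 and 3, with 630 such genes, they were -0.010 for Ifit1, -0.15 for Ifit2, -0.096 for Irf9, -0.12 for Stat2, -0.047 for Oas1a, -0.059 for Oasl1, -0.062 for Bst2, -0.0038 for Ddx58, -0.030 for B2m and -0.22 for Irf1. Without controls 1, 3 and 5, with 488 such genes, they were -0.090 for Ifit1, -0.25 for Ifit2, -0.050 for Irf7, -0.089 for Irf9, -0.10 for Stat2, -0.050 for Oas1a, -0.061 for Oasl1, -0.068 for Bst2, -0.033 for Ddx58, -0.014 for Ifi35, -0.020 for Gbp2, -0.054 for Gbp3, -0.025 for Iigp1, -0.046 for Psmb8, -0.028 for Psmb10, -0.014 for Psme1, -0.037 for B2m and -0.29 for Irf1. Psmb8 minus Psmb5 was then -0.063 and Psmb10 minus Psmb7 -0.16. The mean of probesets gave -0.020 for Stat2, repeated quantile normalization 0.00600 for Oasl2, and array weights 0.11 for Oasl2 and 0.029 for Ifi27l2a. Without control 6 and penicillin 1, 5 and 6, Rsad2 was at 0.14 and Iigp1 at -0.0086. Leaving out 1 liver at a time gave -0.078 to 0.17 for Ifit2, -0.027 to 0.11 for Stat2, -0.11 to 0.093 for Oasl2, -0.013 to 0.10 for Bst2, -0.077 to 0.15 for Irf1, -0.016 to 0.10 for Oas1a and -0.24 to 0.039 for Ifi27l2a. Why these signs turned was not tested. Most of these differences are smaller than their standard errors, and 12 arrays limit what can be told apart.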
